A study of Homo sapiens with 4 samples.

Results

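Replication-dependent histone genes are described here in RPMI 8226 cells, an established human multiple myeloma line, after an antisense oligonucleotide was delivered against the long non-coding RNA LINC01432. Members were the genes of the count table whose Ensembl ID carries a current symbol of the H2AC, H2BC, H3C or H4C series or one of H1-1 to H1-6. This gave 69 of 78932 gene entries: 6 linker histone H1 genes, 17 H2A, 18 H2B, 13 H3 and 15 H4 genes, and no pseudogene had to be removed. The rule itself reads gene names only.

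Total RNA was sequenced 72 h after transfection in 4 libraries: 2 received a control LNA (locked nucleic acid) oligonucleotide, whose dose is not given separately, and 2 received an LNA against LINC01432 at 50 nM. Nothing but the oligonucleotide differs between the groups in the labels, and each group rests on a single oligonucleotide design in a single cell line. Whether the 2 libraries of a group stem from separate cultures is not stated, and the p-values therefore reflect library-to-library spread, which may be technical. LINC01432, the targeted RNA, stood at 20.5 and 17.9 CPM in the control libraries and at 8.997 and 9.90 CPM in the LINC01432 LNA libraries, a log2 fold change of -1.02 (SE 0.11, edgeR adjusted p = 0.000228). CPM are read counts scaled to the size of each library.

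Replication-dependent histone genes supply the histones that package newly copied DNA. The core histones H2A, H2B, H3 and H4 form the nucleosome, and linker histone H1 binds where DNA enters and leaves it. Their genes mostly lack introns, lie in clusters, and are transcribed in S phase through the coactivator NPAT. Their mRNAs end in a conserved stem-loop in place of a poly(A) tail; the stem-loop binding protein SLBP and the U7 small nuclear ribonucleoprotein are needed to form that end.

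That missing tail makes library preparation relevant to the values. In the text on the series' design the RNA was poly(A)-selected, whereas the sample protocols describe enzymatic removal of ribosomal RNA followed by random priming. Members took between 1.78% and 2.14% of the gene counts of a library, from totals of 20873393 to 29161298. The 9 plasma cell and myeloma markers listed all passed the filter on low counts and summed to between 2644 and 3232 CPM in a library. Of these CD38 was called higher, TNFRSF17 and XBP1 were called lower, and 6 were not called. Lists for other cell types summed to at most 7.13 CPM in any library, apart from EPCAM (60.4 ± 0.830 CPM in control and 50.7 ± 1.18 CPM in LINC01432 LNA libraries; mean ± SD, n = 2, as for all such values below).

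Of the 69 members, 58 passed the filter on low counts and were tested among 18680 genes. The other 11 held at most 10 counts in any library: H1-1, H1-6, H2AC1, H2AC7, H2AC18, H2BC1, H2BC4, H3C3, H4C6, H4C7 and H4C13. H2AC1 and H2AC18 had 0 counts throughout, where 3 counts would be worth 0.103 to 0.144 CPM. Expression was uneven beyond this, with 33 members at 100 CPM or more in control cells and 8 tested members under 5 CPM.

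Most members did not pass the test. Of the 58 tested, 12 rose, 2 fell and 44 did not pass an adjusted p of 0.05 in edgeR's quasi-likelihood test. Over all genes tested, 7.5% rose and 4.37% fell. The median log2 fold change of the members was 0.12, against 0.01 over all genes tested. The CPM of the 2 groups did not overlap for 42 of the 58 members, where the same was true of 54.1% of all genes tested. The split into rises and falls moved with the scaling, to 11 and 0 with library totals only. It was 9 and 6 after correction for the GC content of the longest annotated transcript, called exon GC below. After correction for the GC content of coding sequences it was 5 and 9. The background moved too, to 4.42% higher and 7.98% lower with exon GC and to 3.72% higher and 7.04% lower with coding GC. With 1 library left out the number of calls moved widely, for all genes as for the members. The median log2 fold change of the members was 0.13 without control replicate 1 and 0.08 without control replicate 2. It was 0.04 without LINC01432 LNA replicate 1 and 0.15 without LINC01432 LNA replicate 2. Over all genes the median stayed between -0.01 and 0.00.

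**Figure D1:**
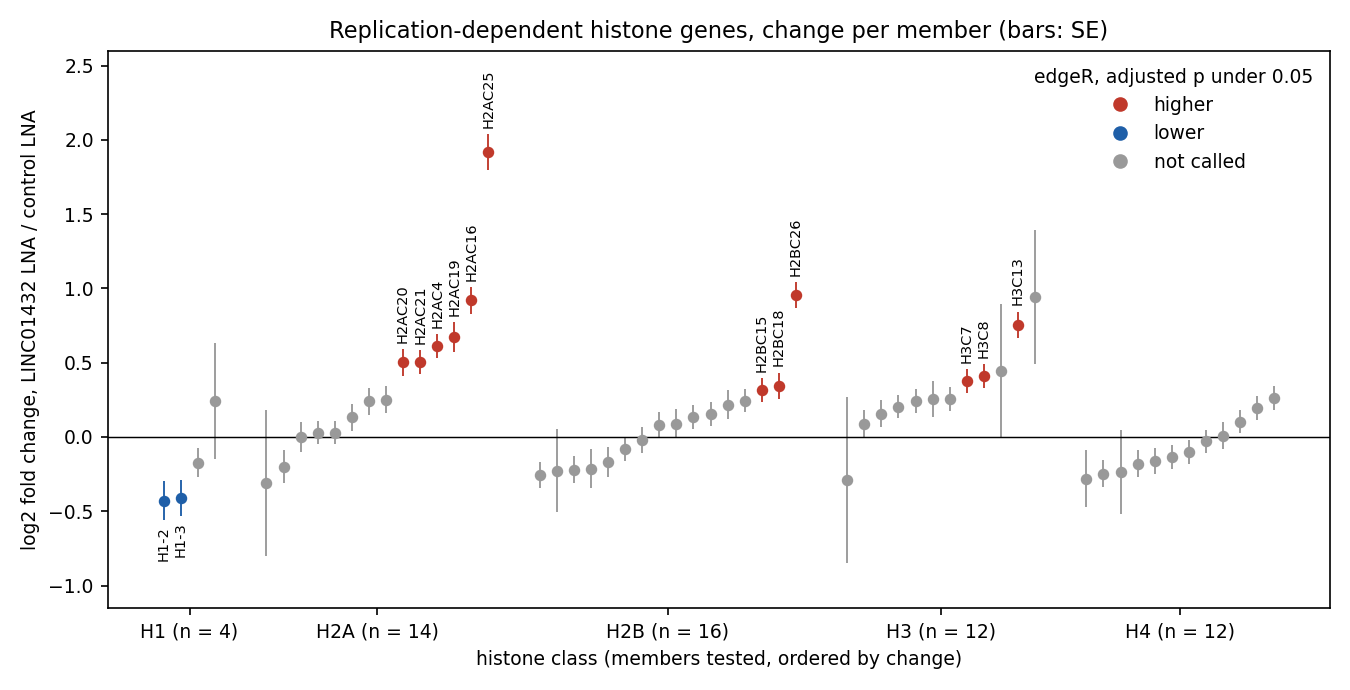
Log2 fold change (LINC01432 LNA over control LNA) of the 58 tested members, by class and ordered by change; bars are the standard error from edgeR, and red and blue mark members called higher and lower. The 12 called higher are 6 H2A, 3 H2B and 3 H3 genes, the 2 called lower are H1-2 and H1-3, and no H4 gene is called.

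Calls were counted by histone class, to be read beside 7.5% rises and 4.37% falls over all genes tested. H2A genes gave 6 rises among 14 tested (median log2 fold change 0.25), H2B genes 3 among 16 (0.08), H3 genes 3 among 12 (0.26), and the 54 core genes tested gave no fall. Core genes did fall after GC correction: H2BC8, H2BC10 and H4C3 with exon GC, and these with H3C15, H4C11, H4C14 and H4C15 with coding GC. H4 genes gave no call among 12 (median -0.12), and H1 genes gave 2 falls and no rise among 4 (-0.29). Differences between classes were not tested.

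Summed over each class, the total histone message differed little. All members together summed to 19644 and 18768 CPM in the control libraries and to 20863 and 18433 CPM in the LINC01432 LNA libraries, so the groups overlapped (log2 ratio of means 0.03). H1 sums went from 3626 and 3452 CPM to 3210 and 2526 CPM, and its share of the members' counts went from 18.5% and 18.4% to 15.4% and 13.7%. The 2 LINC01432 LNA libraries differed from each other in this sum by more than the control libraries did. H3 sums went from 2700 and 2655 CPM to 3285 and 2987 CPM, a log2 ratio of 0.23, and H2A sums from 3914 and 3742 CPM to 4620 and 4069 CPM, a log2 ratio of 0.18. Neither class overlapped between groups. H2B sums overlapped, at 7053 and 6732 CPM in control and 7586 and 6768 CPM in LINC01432 LNA libraries. H4 sums stood at 2352 and 2186 CPM against 2162 and 2083 CPM, also without overlap but lower, with a log2 ratio of -0.10. Sums carry no test, and LINC01432 LNA replicate 2 was the lower of its pair in each class; without LINC01432 LNA replicate 1 the log2 ratio was -0.06 for all members and -0.03 for H2B.

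**Figure D2:**
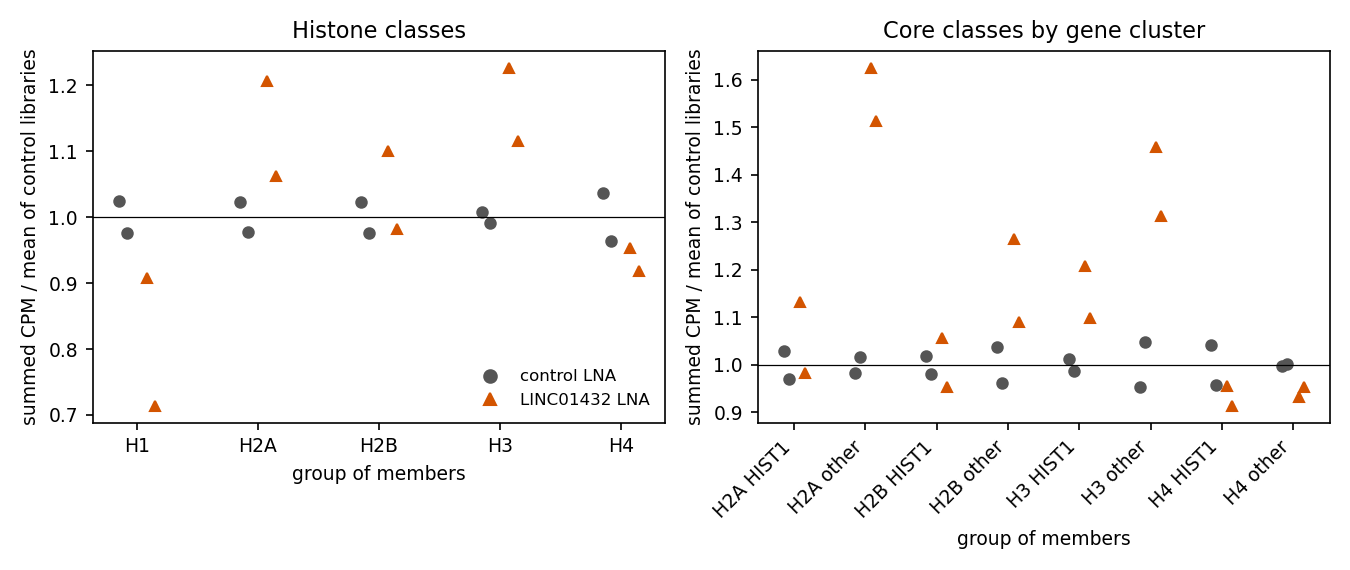
Summed CPM of each library divided by the mean of the control libraries, for the 5 classes (left) and for core classes split into the large chromosome 6 cluster (HIST1) and the other clusters (right); points are libraries and no bars are drawn. H1 sums of the LINC01432 LNA libraries lie below both control libraries, and H2A outside HIST1 shows the widest gap, at 1.57 times the control mean.

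Calls were also counted by gene cluster, to be read beside 7.5% rises and 4.37% falls over all genes tested. The clusters are of unequal size, and differences between them were not tested. The 45 tested genes of the large cluster on chromosome 6 (HIST1) had 5 rises, 2 falls and a median log2 fold change of 0.08. Among the 10 tested genes of the chromosome 1 cluster HIST2, 5 rose and none fell (median 0.30), and both genes of the small chromosome 1 cluster HIST3 rose. The only gene of HIST4, H4C16 on chromosome 12, stood at 86.5 and 85.9 CPM in control and 83.4 and 85.6 CPM in LINC01432 LNA libraries, without a call. Of the H2A genes outside HIST1, 4 of 4 tested rose, and their sum went from 569 and 587 CPM to 940 and 875 CPM. H2A genes inside HIST1 summed to 3345 and 3155 CPM against 3680 and 3195 CPM, which overlapped. The H4 genes outside HIST1 had no rise, with log2 fold changes of -0.10, -0.14 and -0.03.

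H2AC25 (ENSG00000181218, chr1:228457364-228457873, minus strand, GRCh38.p14), an H2A gene of HIST3, had the highest log2 fold change of any member. It measured 29.2 and 39.7 CPM in the control libraries and 133 and 127 CPM in the LINC01432 LNA libraries. Both treated libraries were thus more than 3 times the higher control library. The mean went from 34.5 ± 7.40 to 130 ± 4.64 CPM, 3.78-fold (log2 1.92, SE 0.12, edgeR adjusted p = 6.15e-06), and ranked 86 by rise among all genes tested. H2BC26 (ENSG00000196890, chr1:228458103-228458558, plus strand), the H2B gene that shares its promoter region, measured 91.2 and 88.2 CPM in control and 185 and 163 CPM in LINC01432 LNA libraries. Its groups were also far apart, a 1.94-fold rise (log2 0.955, SE 0.09, edgeR adjusted p = 6.29e-05). Both stayed called under each of the 14 alternatives tried, with log2 fold changes of 1.40 to 2.14 for H2AC25 and 0.79 to 1.03 for H2BC26.

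The transcription starts of H2AC25 and H2BC26 lie 230 nt apart and point away from each other, so a single window of 250 bases upstream of H2AC25 holds the shared promoter. It is printed from RefSeq (GRCh38.p14), 5′ to 3′ on the strand of H2AC25, with the window upstream of H2AC20, an H2A gene of HIST2, beside it. Capitals mark matches, on either strand, to CCAAT, to the TATA box spelled TATAAA, the octamer ATTTGCAT and the H1 box AAACACA; overlapping matches run together, as when TATAAA meets its reverse complement.
H2AC25 upstream window, chr1:228457874-228458123, minus strand: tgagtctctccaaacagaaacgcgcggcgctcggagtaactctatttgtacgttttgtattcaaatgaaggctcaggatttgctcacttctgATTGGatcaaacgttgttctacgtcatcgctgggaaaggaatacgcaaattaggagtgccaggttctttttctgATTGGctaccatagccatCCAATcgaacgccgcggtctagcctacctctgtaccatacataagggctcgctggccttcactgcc
H2AC20 upstream window, chr1:149886668-149886917, plus strand: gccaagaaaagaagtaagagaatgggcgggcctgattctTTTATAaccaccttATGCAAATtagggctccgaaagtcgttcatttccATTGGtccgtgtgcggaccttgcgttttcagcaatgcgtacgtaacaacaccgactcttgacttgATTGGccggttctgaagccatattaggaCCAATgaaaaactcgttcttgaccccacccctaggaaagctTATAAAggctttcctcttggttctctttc
The H2AC25 window holds CCAAT 3 times and none of the other 3 motifs, while the H2AC20 window holds CCAAT matches, TATAAA and the octamer. Searched over 250 bases before to 50 after the start, CCAAT occurred in 84.4% of the 64 member windows given, against 35.7% of 27305 promoters, and TATAAA in 65.6% against 12%. CCAAT was in every window of the H1, H2A, H2B and H3 genes and in 3 of 13 H4 windows. The octamer occurred in 11 of 16 H2A and 14 of 18 H2B windows and in 1.8% of all promoters. All 12 members called higher held CCAAT, as did 30 of 39 members without a call; 6 of the 12 held TATAAA, as did 28 of the 39. A match is a description of the letters only. Windows for H2AC12, H3C11, H3C12, H4C1 and H4C3 were not used here.

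Among the 64 members with a promoter window there were 12 such back-to-back pairs with starts under 300 nt apart (194 to 248 nt). In 9 of them both genes were tested. H2BC12 and H2AC12 also start back to back, at chr6:27146858 and chr6:27147106. They are not among these pairs because H2AC12 had no window, and neither gene was called. H2BC7 is counted in a pair with H3C4 and again in a pair with H2AC7, each 223 nt away. HIST3 was the only pair of the 9 in which both genes rose. In 2 pairs a single gene rose: H2AC20 without H2BC21, 236 nt away (log2 fold changes of 0.502 and 0.09), and H2BC15 without H2AC15, 194 nt away (0.314 and 0.251). In the other 6 pairs neither gene was called, though H3C4 and H2AC17 of these pairs had at most 12 and 13 counts a library. The difference between H2AC25 and H2BC26 themselves was not tested.

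**Figure D3:**
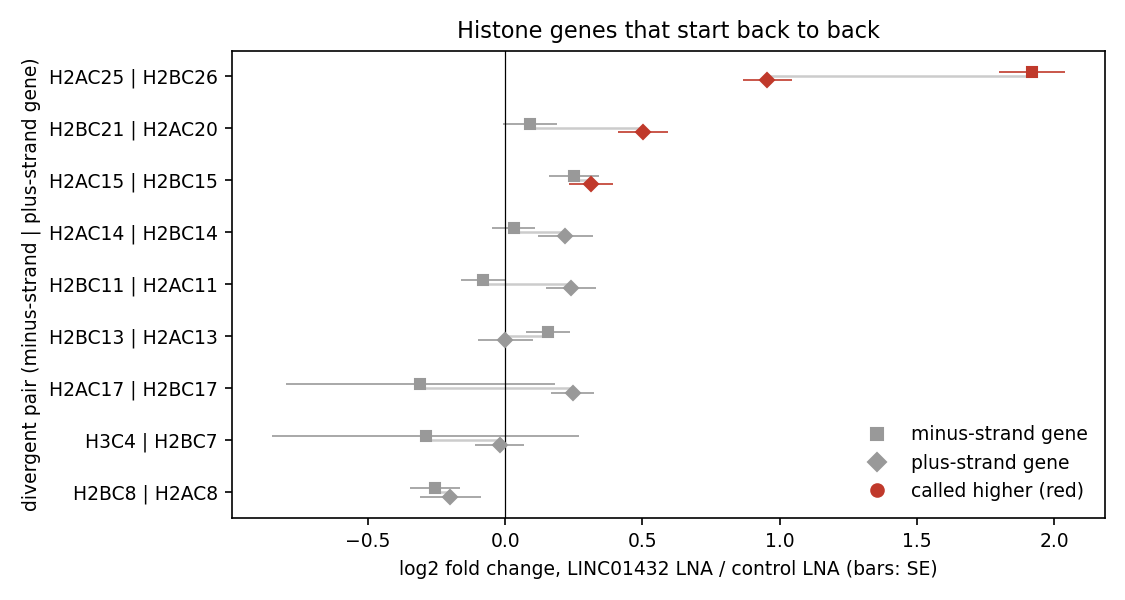
Log2 fold change (LINC01432 LNA over control LNA) of both genes of each of the 9 back-to-back pairs with both genes tested. Pairs were sought among members with a promoter window. Squares are minus-strand and diamonds plus-strand genes, bars are standard errors, and red marks genes called higher. H2AC25 and H2BC26 sit at 1.92 and 0.955, and the genes of the other 8 pairs lie at 0.502 or below.

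Neighbours of HIST3 within 100 kb, looked up after the values were seen, had smaller log2 fold changes. TRIM11, a ubiquitin ligase gene, rose by 0.36 on the log2 scale, from 57.7 and 58.9 CPM to 76.5 and 73.5 CPM. RNF187 was at 286 and 292 CPM against 263 and 304 CPM, with a log2 fold change of -0.03 and no call. The histone variant gene H2AX, not a member and on another chromosome, went from 77.0 and 93.9 CPM to 287 and 272 CPM (log2 fold change 1.71).

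Other H2A genes that rose were H2AC16, H2AC19, H2AC4, H2AC21 and H2AC20. H2AC16 (HIST1, chr6:27865317-27865798) was at 13.6 and 13.3 CPM in control and 25.5 and 25.6 CPM in LINC01432 LNA libraries, 1.89-fold (log2 0.92, SE 0.09, edgeR adjusted p = 0.000119). Its 2 groups were tight and did not overlap. H2AC4 (HIST1, chr6:26033092-26033618) went from 81.0 and 79.1 CPM to 126 and 119 CPM, 1.53-fold (log2 0.61, SE 0.08, edgeR adjusted p = 0.00055). H2AC19 (HIST2, chr1:149851061-149851594) went from 37.3 and 44.9 CPM to 67.5 and 63.6 CPM, 1.60-fold (log2 0.67, SE 0.10, edgeR adjusted p = 0.00123). H2AC19 is uncertain as a single gene, since its coding sequence is identical to that of H2AC18, which was listed at 0 throughout. All 3 of these stayed called under each of the 14 alternatives, GC correction and each left-out library included.

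H2AC21 (chr1:149887469-149887965) and H2AC20 (chr1:149886918-149887411) are neighbours in HIST2. H2AC21 measured 146 and 144 CPM in control and 205 and 206 CPM in LINC01432 LNA libraries, 1.42-fold (log2 0.51, SE 0.08, edgeR adjusted p = 0.00157), and 6.87% of its exon bases overlap BOLA1. H2AC20 measured 357 and 359 CPM against 534 and 479 CPM, also 1.42-fold (log2 0.50, SE 0.09, edgeR adjusted p = 0.0031). Neither gene's groups overlapped. Both calls were lost after exon GC correction, where each log2 fold change was 0.15 (edgeR adjusted p = 0.194 for H2AC21 and 0.318 for H2AC20). Without control replicate 1 the adjusted p was 0.103 and 0.178, and without control replicate 2 it was 0.11 and 0.133, in the same order.

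The H2A genes with the highest CPM were not called. H2AC11 stood at 888 and 825 CPM in control and 1082 and 942 CPM in LINC01432 LNA libraries (log2 fold change 0.24, edgeR adjusted p = 0.132), and H2AC8 at 752 and 695 CPM against 696 and 563 CPM (-0.20). H2AC13 was at 527 and 490 CPM against 548 and 467 CPM, overlapping and near 0 in log2 fold change. Within the same class these 3 members were not called while H2AC16, H2AC19 and H2AC4, all under 130 CPM, rose. Calls did not divide by level. H2AC20, at 357 and 359 CPM in control, was called higher, and H2AC15, at 85.5 and 90.6 CPM in control, was not called. H2AC4 is shown as an HIST1 gene of the class that rose, again upstream of its start with the same motifs in capitals.
H2AC4 upstream window, chr6:26033619-26033868, minus strand: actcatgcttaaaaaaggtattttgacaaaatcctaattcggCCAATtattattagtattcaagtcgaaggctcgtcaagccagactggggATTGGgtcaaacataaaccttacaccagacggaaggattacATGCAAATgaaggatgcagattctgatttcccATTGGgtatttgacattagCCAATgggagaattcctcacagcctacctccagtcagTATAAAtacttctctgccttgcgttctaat

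H2B genes are the partners of H2A in the nucleosome and took the most counts of the classes in sum. Besides H2BC26, H2BC18 and H2BC15 rose. H2BC18 (HIST2, chr1:149782689-149812370) went from 430 and 395 CPM to 563 and 483 CPM, 1.27-fold (log2 0.34, SE 0.09, edgeR adjusted p = 0.0378), and H2BC15 (HIST1, chr6:27838569-27839110) from 287 and 281 CPM to 371 and 335 CPM, 1.24-fold (log2 0.31, SE 0.08, edgeR adjusted p = 0.0315). The groups did not overlap for either gene. Annotated transcripts of H2BC15 cover the whole of H2AC15 and reach into H2AC16, and 5.54% of H2BC18's exon bases overlap FCGR1A, so their reads may be shared. H2BC18 lost its call with library totals only (edgeR adjusted p = 0.0575), and both lost theirs with coding GC correction (log2 fold changes of 0.19 and 0.25, edgeR adjusted p = 0.262 and 0.0663). Without control replicate 1 the adjusted p was 0.342 for H2BC18 and 0.492 for H2BC15, and without control replicate 2 it was 0.604 and 0.551.

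The 13 other tested H2B genes did not pass the test. H2BC12, highest of the class in CPM, was at 1257 and 1241 CPM in control and 1385 and 1252 CPM in LINC01432 LNA libraries (log2 fold change 0.08). H2BC21 was at 963 and 894 CPM against 1062 and 913 CPM (0.09), and H2BC5 at 709 and 698 CPM against 800 and 747 CPM (0.14). The lowest value of the class belonged to H2BC8, at 614 and 561 CPM against 511 and 473 CPM (-0.26, edgeR adjusted p = 0.0845). DESeq2 called H2BC8 lower, and limma-voom did not.

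H3 genes encode the histone whose tail carries many of the best known chromatin marks. Those that rose were H3C13, H3C8 and H3C7. H3C13 (HIST2, chr1:149813225-149813693) went from 71.8 and 85.8 CPM to 134 and 132 CPM, 1.69-fold (log2 0.75, SE 0.09, edgeR adjusted p = 0.000456). H3C8 (HIST1, chr6:26270918-26271413) went from 347 and 328 CPM to 462 and 433 CPM, 1.33-fold (log2 0.41, SE 0.08, edgeR adjusted p = 0.00797), and H3C7 (HIST1, chr6:26250142-26250635) from 391 and 403 CPM to 536 and 497 CPM, 1.30-fold (log2 0.38, SE 0.08, edgeR adjusted p = 0.0122). All 3 had groups apart from each other. Exon GC correction removed the calls of H3C13 (log2 fold change 0.14, edgeR adjusted p = 0.312) and H3C7 (0.13, edgeR adjusted p = 0.362), and coding GC correction removed that of H3C8 (0.22, edgeR adjusted p = 0.125). Without control replicate 1 the adjusted p was 0.246 for H3C8 and 0.45 for H3C7, and without control replicate 2 it was 0.386 and 0.323; H3C13 stayed called without either.

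The upstream window of H3C13 is shown as that of the H3 gene with the largest called rise.
H3C13 upstream window, chr1:149813694-149813943, minus strand: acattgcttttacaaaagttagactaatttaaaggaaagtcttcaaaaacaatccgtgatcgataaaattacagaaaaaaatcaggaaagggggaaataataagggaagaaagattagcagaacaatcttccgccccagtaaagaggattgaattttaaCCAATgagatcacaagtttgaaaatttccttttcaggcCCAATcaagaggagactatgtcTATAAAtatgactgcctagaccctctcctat
This window holds CCAAT and TATAAA but neither the octamer nor the H1 box. H3C2, the H3 gene with the highest CPM, was at 1091 and 1079 CPM in control and 1223 and 1085 CPM in LINC01432 LNA libraries (log2 fold change 0.09), and H3C10 at 509 and 473 CPM against 570 and 523 CPM (0.16). H3C14 and H3C15, whose coding sequences are identical, had log2 fold changes of 0.25 and 0.24 without a call. H3C11 had the highest point estimate of the class, 0.94, at 7 to 16 counts a library, with a standard error of 0.45 and no call.

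H4 genes gave no call by edgeR or DESeq2, while limma-voom called H4C9 higher, as did edgeR with a filter of 1 CPM (adjusted p = 0.0395). After exon GC correction edgeR called H4C3 lower and H4C9 higher, and after coding GC correction it called H4C3, H4C11, H4C14 and H4C15 lower and none higher. At an unadjusted p under 0.05 edgeR had 2 H4 genes higher and 1 lower. H4C5, the highest of the class in CPM, was at 989 and 887 CPM in control and 838 and 819 CPM in LINC01432 LNA libraries (log2 fold change -0.18, edgeR adjusted p = 0.233). H4C3 was at 396 and 352 CPM against 324 and 307 CPM (-0.25, edgeR adjusted p = 0.0953), and H4C9 moved the other way, from 270 and 287 CPM to 343 and 326 CPM (0.26, edgeR adjusted p = 0.0582). These 3 genes had groups that did not overlap, as did 11 of the 12 H4 genes tested, in either direction. The same was true of 54.1% of all genes tested. Identical coding sequences in H4C11 and H4C12 and in H4C14 and H4C15 make those values uncertain for single genes. TATAAA occurred in 7 of 13 H4 windows. H4C5, the H4 gene with the highest CPM, is shown as 1 of 4 H4 genes, with H4C8, H4C14 and H4C15, whose window matched none of the 4 motifs.
H4C5 upstream window, chr6:26204360-26204609, plus strand: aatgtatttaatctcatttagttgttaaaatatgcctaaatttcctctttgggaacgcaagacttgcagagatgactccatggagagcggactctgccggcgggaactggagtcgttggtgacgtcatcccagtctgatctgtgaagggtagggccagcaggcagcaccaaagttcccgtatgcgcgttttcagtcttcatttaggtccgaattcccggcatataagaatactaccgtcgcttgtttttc

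**Figure D4:**
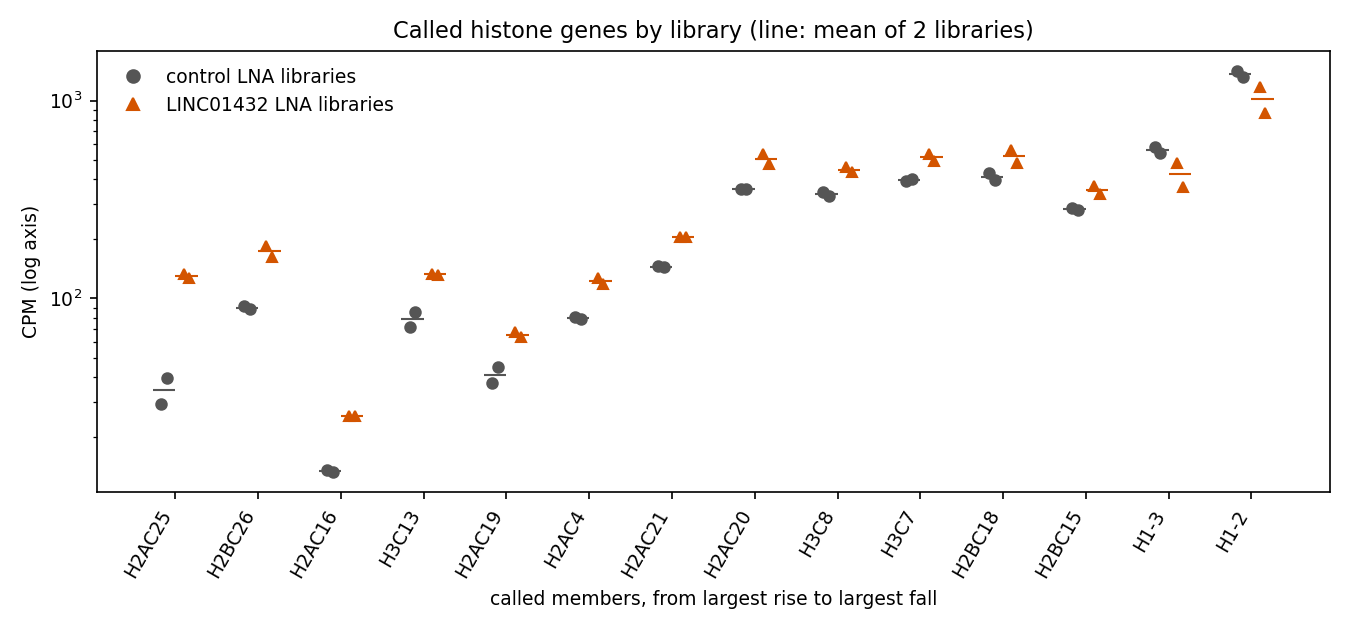
CPM (log axis) of the 14 called members in each library; circles are control LNA and triangles LINC01432 LNA libraries, and lines are means of 2 libraries. The groups of each called member lie apart, by most for H2AC25, and H1-2 and H1-3 are the members whose triangles lie below the circles.

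In linker histone H1, 2 genes fell and none rose. H1-2 (ENSG00000187837, chr6:26055740-26056470, minus strand) was at 1414 and 1317 CPM in control and 1166 and 864 CPM in LINC01432 LNA libraries. Its mean fell from 1366 ± 68.4 to 1015 ± 214 CPM, a log2 fold change of -0.43 (SE 0.13, edgeR adjusted p = 0.0471). H1-3 (ENSG00000124575, chr6:26234212-26234987, minus strand) fell from 581 and 544 CPM to 482 and 364 CPM, a log2 fold change of -0.41 (SE 0.12, edgeR adjusted p = 0.0441). Both treated libraries lay under both control libraries, with LINC01432 LNA replicate 2 the lower. H1-4, the H1 gene with the highest CPM, was at 1630 and 1590 CPM against 1561 and 1297 CPM (-0.17, edgeR adjusted p = 0.326) and was not called. H1-5 had 12 to 21 counts a library and no call.

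The falls of H1-2 and H1-3 lay close to the threshold. With library totals only the edgeR adjusted p was 0.082 and 0.0836, and with a filter of 1 CPM it was 0.0612 and 0.0565, H1-2 first. Without control replicate 1 it was 0.352 and 0.332, and without control replicate 2 it was 0.151 and 0.146. Leaving out LINC01432 LNA replicate 2 reduced the log2 fold changes to -0.25 and -0.24, and leaving out replicate 1 took them to -0.68 and -0.64, with the calls kept. After exon GC correction the log2 fold changes were -0.58 for H1-2, -0.50 for H1-3 and -0.39 for H1-4, with all 3 called lower (edgeR adjusted p = 0.0246, 0.027 and 0.0478).

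All 6 H1 windows hold the H1 box AAACACA, a motif found in 5.76% of all promoters. Searched over 250 bases before to 50 after the start, the box was also in 1 of 16 H2A and 2 of 11 H3 windows. None of the H2B or H4 windows held it. The upstream windows of H1-2, which fell, and H1-4, which was not called, show it beside CCAAT.
H1-2 upstream window, chr6:26056471-26056720, minus strand: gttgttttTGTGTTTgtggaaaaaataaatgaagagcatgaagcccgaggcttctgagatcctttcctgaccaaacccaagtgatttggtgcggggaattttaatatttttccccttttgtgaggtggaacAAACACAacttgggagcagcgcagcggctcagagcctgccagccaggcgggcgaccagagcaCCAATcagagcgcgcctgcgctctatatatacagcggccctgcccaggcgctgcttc
H1-4 upstream window, chr6:26156079-26156328, plus strand: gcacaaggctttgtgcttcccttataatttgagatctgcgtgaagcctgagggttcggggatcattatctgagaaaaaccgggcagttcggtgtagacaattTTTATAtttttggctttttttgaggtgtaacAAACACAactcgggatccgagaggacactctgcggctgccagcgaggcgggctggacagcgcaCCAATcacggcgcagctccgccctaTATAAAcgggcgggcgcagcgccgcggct
CCAAT lies near the start in each and an H1 box about midway, and H1-2 has another match at the far end.

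The 3′ ends of the members also carry a class signature. Among 35 members whose GENCODE annotation includes at least 30 nt of 3′ untranslated sequence, 31 held a match to the histone 3′ stem-loop, 22 to 67 nt after the stop codon. The 16-base element is given as it occurs in H2AC25, H2AC11, H2BC7, H3C6, H4C5 and H4C9, with capitals at positions 4, 8, 10 and 13, where members differ.
H2AC25: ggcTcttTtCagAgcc
H2AC11: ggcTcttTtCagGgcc
H2BC7: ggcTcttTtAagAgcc
H3C6: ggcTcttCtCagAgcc
H4C5: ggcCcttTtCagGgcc
H4C9: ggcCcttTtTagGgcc
Bases 4 and 13 face each other in the stem and were T and A in H2B and H3 members, and C and G in each of the 8 H4 members with a match. H2AC25 and H2BC26, which rose most in their classes among genes with a call, share their element with other H2A, H2B and H3 members. For 21 members the annotated transcripts run over 300 nt past the stem-loop, and the count table does not separate ends formed at the stem-loop from longer ones.

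The change of a member went with the GC content of its coding sequence. Over the 58 tested members Pearson's r between coding GC and log2 fold change was 0.56 and Spearman's rho 0.54, a description across genes that share libraries and sequence and are not independent. Coding GC ran from 54.5% to 68.0%, with medians of 62.4% for members that rose, 56.0% for those that fell and 61.2% for those without a call. H1-3 and H2AC25 stand at the 2 ends, at 54.5% and 68.0%. Each library was also corrected for its GC trend, which removes the trend whatever its origin. The part of base composition in the changes was therefore not tested. With exon GC the median of the members became -0.06, and with coding GC -0.12, where the median over all genes was -0.04 in both. H2AC25, H2BC26, H2AC16, H2AC19 and H2AC4 were the members called higher under both corrections. Exon GC was that of the longest annotated transcript, so it depended on how far the annotated 3′ end runs. For H3C8, which kept its call with exon GC, it was 42.7% against 61.5% in the coding sequence. For H3C13, which lost its call, it was 67.4% against 67.9%.

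**Figure D5:**
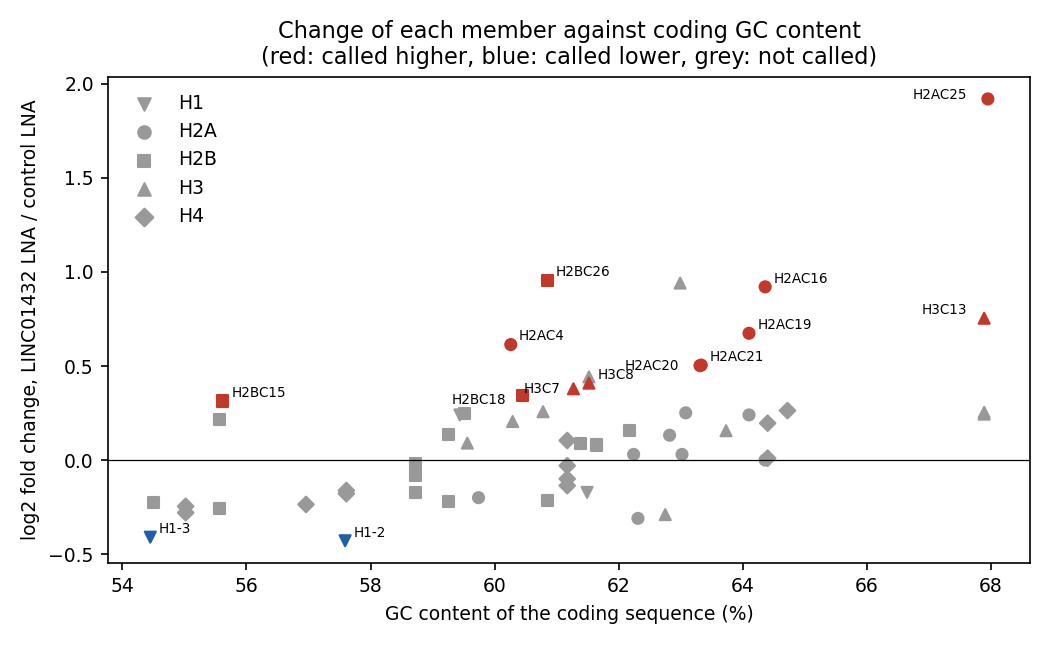
Log2 fold change (LINC01432 LNA over control LNA) of the 58 tested members against the GC content of their coding sequence; shapes are classes, and red and blue mark members called higher and lower. Points drift upward from left to right (Pearson's r 0.56), with H2AC25 above the drift and H1-3 at its low end.

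Near-identical sequence limits what can be said of single genes. There are 8 members with a coding sequence identical to that of another member (H2AC18 and H2AC19, H3C14 and H3C15, H4C11 and H4C12, H4C14 and H4C15), and 11 share at least 1 stretch of 150 nt, the read length, with another. H2AC25, H2BC26, H2AC4, H2AC16, H1-2 and H1-3 share no such stretch. How the authors' counting treated reads that match several places is not given in the sources used here.

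Genes for the making and turnover of histone mRNA were read against the same background, in which 7.5% of genes rose and 4.37% fell. None of the 11 genes listed for histone gene transcription was called by edgeR, DESeq2 or limma-voom, and none had an unadjusted p under 0.05 in edgeR; NPAT was at 65.5 and 64.1 CPM against 62.6 and 55.0 CPM. Among 17 tested genes of histone pre-mRNA processing, LSM10, a protein of the U7 particle, rose from 50.8 and 54.3 CPM to 63.7 and 80.9 CPM (log2 fold change 0.46), and MBLAC1, a nuclease that acts on histone pre-mRNA, from 3.81 and 4.32 CPM to 6.71 and 6.78 CPM (0.73). SLBP stood at 73.9 and 71.7 CPM against 76.2 and 80.0 CPM (0.10, not called), and the U7 RNA gene RNU7-1 was listed at 0. Of 18 genes of histone mRNA translation and decay, UPF1 and LSM7 rose (log2 fold changes 0.35 and 0.54) and LSM3, TUT4 and TUT7 fell (-0.37, -0.63 and -0.48). UPF1 is the helicase of histone mRNA decay, and TUT4 and TUT7 are uridylyltransferases that add U to RNA 3′ ends. After exon GC correction LSM10, MBLAC1, UPF1 and LSM7 all lost their calls, and CSTF2 and SNRPD3 of the processing list were called lower; with coding GC LSM10 was still called higher. None of the processing genes was called without control replicate 1, and of the translation and decay genes none rose and 2 fell.

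Genes that handle histone protein and copy DNA were divided as well. Of 17 chaperone and import genes, DNAJC9 and TONSL rose (log2 fold changes 0.67 and 0.48), and HAT1, which acetylates new H4, and NAP1L4 fell (-0.46 and -0.63). Of 25 genes of S phase DNA synthesis, CDT1, CCNA2 and UHRF1 rose (0.66, 0.50 and 0.29) and POLA1 and GINS1 were among those that fell (-0.40 and -0.30). Without control replicate 1 none of the S phase genes was called. Both lists had a median log2 fold change of -0.07, against 0.12 for the histone members. Among 11 tested histone variant genes outside the members, H2AX and the linker variant H1-10 rose. H1-10 went from 39.3 and 51.2 CPM to 82.2 and 90.1 CPM (0.93), the opposite direction to H1-2 and H1-3. It lost its call after exon GC correction.

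RNAs without poly(A) tails other than histone mRNAs were looked at beside the members, because the 2 accounts of library preparation would treat them differently. Of 7 tested, RNU4-1 and RNU4-2 rose (log2 fold changes 0.79 and 0.60) and the other 5 were not called. The list summed to 41944 and 34178 CPM in control and 39755 and 40030 CPM in LINC01432 LNA libraries, so its groups overlapped. The part of RNA selection in the changes of the members was not tested.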

How the data were processed

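The deposited table gives whole-number counts of reads per gene for 4 libraries, without normalization by the authors. The submitters' processing notes list bcl2fastq, Salmon 1.10.0, STAR 2.7.11b and featureCounts 2.0.8 (Subread) and the GRCh38 build, with no role or order; the sources used here do not give annotation release, strand setting or the treatment of reads with several matches. Samples were grouped by title. All 18680 genes past filterByExpr (minimum count 10, minimum total 15) were fitted in edgeR 4.0.16 (R 4.3.3; TMM, quasi-likelihood F test, group only) with Benjamini-Hochberg adjustment over all of them; an adjusted p under 0.05 was a call. The smallest p of an exact permutation test of 2 against 2 is 0.333. CPM use TMM-scaled totals, mean ± SD over 2 libraries. The 92 ERCC and 5 transgene entries were left out.

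Members and lists were chosen with earlier results of these data known. Named by rule were called members, the 3 tested members per class with the highest mean CPM, and called genes of the context lists. Coordinates and promoters are from RefSeq GRCh38.p14, exons, coding sequences and 3′ ends from GENCODE 29; 4 members were matched to an older ID by position. A few genes of the context lists and neighbours are not reported here, proteins were not used, and promoters are printed for a few members only. In simulated counts 60% of genes changed by 0.5 on the log2 scale and 97% changed by 1 were recovered for this comparison over 18167 genes. The changed genes were drawn only from those above a minimum mean count, so recovery at lower counts was not simulated. Alternatives were other normalizations, filters, DESeq2 1.42.0, limma-voom (limma 3.58.1), a replicate block, GC correction (lowess, span 0.3) and each library left out; correction on coding GC was added after seeing the data.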

Additional observations from a re-analysis of the deposited data

How the results depend on the processing

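Of the values recomputed for the members named by rule, 281 kept direction and call, 36 lost a call, 31 gained one and 16 changed sign. The other tested members are not in these counts. Some of them gained a call, such as H2BC10, called lower with exon GC and with coding GC correction. Members called lower were 2 of 58 as reported, beside 4.37% of all genes. With library totals only they numbered 0, beside 649 of 18680 genes. With no low-count filter they numbered 4 of 67, beside 1007 of 48331 genes. With a filter of 1 CPM they numbered 0 of 53, beside 790 of 14631 genes. They numbered 6 with GC correction (7.98% of all genes) and 9 with coding GC correction (7.04%), which left 5 called higher in place of 12. The median log2 fold change of the members, 0.12, became -0.06 with GC correction and -0.12 with coding GC. With the replicate block, genes called went from 2218 to 3862 (2245 higher and 1617 lower of 18680), members higher to 18 and lower to 4. GC correction with replicate block gave 3932 genes, of which 2525 of 17062 tested were lower. It gave 13 of 58 members lower and a median of -0.07. The labels do not say that equal numbers mark a shared culture, and the correlation of deviations was 0.135. Leaving out 1 library gave 766 to 5228 genes called, 6 to 27 members higher and 0 to 14 lower; a lone library was then assumed to vary like the other group. Without LINC01432 LNA replicate 1 the log2 ratio of summed CPM was -0.06 for all members and -0.03 for H2B (0.14 without replicate 2). Members named by rule, without a call, that changed sign were as follows. H2BC12 was at -0.19 with either GC fit on exons, -0.12 with coding GC and -0.01 to 0.13 with a library left out. H3C2 was at -0.10 with exon GC, -0.11 with the block added, -0.03 with coding GC and -0.02 to 0.15 with a library left out. H2BC21 was at -0.10 with coding GC and -0.04 to 0.18 with a library left out. With coding GC H2AC11 was at -0.08, H3C10 at -0.15 and H4C9 at -0.09. H2AC13 was at 0.01 with the 1 CPM filter, and at 0.03 and 0.09 in a range from -0.14 with a library left out. Members not named changed sign too. Among them, H3C15 went from 0.24 to -0.28 with coding GC, and H2AC12 from 0.03 to -0.26 with exon GC. The cause was not tested. Depth limits the 8 tested members under 5 CPM and the 11 not tested.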
